A study of Medicago sativa with 3 samples.

Results

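The enzymes of the shikimate pathway, chorismate mutase and the branches that lead from chorismate to the aromatic amino acids were represented by 91 transcripts. They were among the 95646 assembled in a study of sheep grazing on alfalfa. A transcript was taken when its best protein match and its best nucleotide match both named a legume (Medicago, Glycine, Lotus, Pisum, Cicer or Trifolium) and the protein match held a word such as chorismate, shikimate, dehydroquinate, arogenate, prephenate, anthranilate or tryptophan synthase. The organism condition alone held for 52669 transcripts, called legume-matched here. No expression value entered the choice. Of the 91 transcripts, 69 were sorted by annotation to 15 enzymes of the pathway and its branches, and 22 to transferases that only use shikimate, quinate or anthranilate as an acceptor. The enzyme's own KEGG orthology number, a separate annotation of function, or for 1 transcript that of the closely related aminodeoxychorismate synthase, stood beside 54 of the 69.

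The plants were Medicago sativa ssp. falcata of the cultivar Hulunbeier, in a grazing intolerant population, MF200402, and a grazing tolerant population, MF200401, each a set of field plants propagated as clones. There were 3 libraries, from intolerant grazed, tolerant grazed and tolerant ungrazed plants, 1 per condition, each from an RNA bulk of leaf, stem and root over the plants of a population. The tissues were taken 1 week after the sheep were removed. The ungrazed plants stood in a block of their own behind a fence and were clipped when grazing ended, so grazing and block cannot be told apart. Tissues of ungrazed intolerant plants were not collected, so a response of the intolerant population to grazing cannot be read from these libraries. With 1 library per condition there was no replicate check among the libraries, and no p-value is given. In a bulk of tissues fewer cells of a type and less RNA per cell cannot be told apart.

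In plants the shikimate pathway runs in plastids and turns phosphoenolpyruvate and erythrose 4-phosphate into chorismate. Chorismate is then divided among chorismate mutase, which opens the branch to phenylalanine and tyrosine, anthranilate synthase, which opens the branch to tryptophan, and isochorismate synthase, which leads to phylloquinone and salicylic acid. Phenylalanine feeds lignin, flavonoids and the isoflavonoid defence compounds of legumes, and hydroxycinnamoyl-CoA shikimate transferase returns shikimate to use as a carrier in lignin synthesis.

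The libraries held 22.3, 22.7 and 22.8 mega-fragments aligned to transcripts in the intolerant grazed, tolerant grazed and tolerant ungrazed plants, and the 91 members took 0.133%, 0.134% and 0.137% of them. Values are FPKM, fragments per kilobase of transcript per mega-fragment aligned, and differences are log2 ratios of FPKM with the exact Clopper-Pearson 95% interval of the fragment counts in brackets, which covers counting error only. A member was called higher when its log2 ratio reached 1 and lower when it reached -1, provided that 1 of the 2 libraries exceeded a floor of 3 fragments. Among transcripts at 1 FPKM or more in each of the 3 libraries the median log2 ratio was 0.09 in tolerant grazed over tolerant ungrazed plants and 0.24 in intolerant grazed over tolerant grazed plants, and ratios are best read against these shifts. Leaf markers differed between the libraries. Chlorophyll a/b binding proteins (12 transcripts) summed to 11250 FPKM in intolerant grazed, 4461 in tolerant grazed and 2618 in tolerant ungrazed plants, and the Rubisco small chain (10 transcripts) to 13799, 6419 and 7419. Among stem markers, laccases (29 transcripts) summed to 183, 115 and 136 FPKM and cellulose synthases (80 transcripts) to 755, 743 and 595 FPKM in the same order. The words leghemoglobin, Casparian strip and root phosphate transporter matched 0 legume-matched transcripts, so root tissue was not checked. Since the pathway is plastidic, the leaf values stand beside every ratio given here, and their part in those ratios was not tested.

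Chorismate mutase, a tryptophan synthase beta chain and an arogenate dehydrogenase were the enzymes with the most abundant transcripts higher in tolerant grazed over tolerant ungrazed plants, and 2 arogenate dehydratases were the most abundant ones lower. In tolerant grazed over tolerant ungrazed plants, 20 members were higher and 7 were lower of 89 with a fragment count over the floor. The same threshold was passed upward by 15.0% and downward by 8.47% of legume-matched transcripts (15.7% and 24.5% of all transcripts), and the members' shares were 22.5% and 7.87%. The members had a median log2 ratio of 0.06, against 0.12 for legume-matched transcripts. In intolerant grazed over tolerant grazed plants, 17 members were higher and 9 were lower of 91, shares of 18.7% and 9.89%. Legume-matched transcripts passed upward in 22.3% and downward in 13.1% of cases (26.0% and 21.1% of all transcripts), and the medians were 0.34 for the members and 0.28 for legume-matched transcripts. Members as a whole thus lay near the background in both comparisons, and the differences lay in single enzymes and transcripts.

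The 2 comparisons share the tolerant grazed library, so a value that is high there reads as higher in the one and lower in the other. Of the members, 5 were higher in the first comparison and lower in the second, 5 were lower in the first and higher in the second, and 51 were called in neither. The matching shares of legume-matched transcripts were not computed, so these counts have no background and are not read as particular to the members. By position in the pathway, 1 of 13 was called in the first comparison in the steps up to chorismate (0% higher, 7.69% lower). In the branch to phenylalanine and tyrosine it was 9 of 18 (33.3% and 16.7%). The branch to tryptophan had 7 of 34 (14.7% and 5.88%) and the acceptor transferases 10 of 21 (42.9% and 4.76%). These shares stand beside 15.0% higher and 8.47% lower of legume-matched transcripts, and contigs of a cluster were counted separately. For 2 of the 20 and 2 of the 7 calls in the first comparison, and for 1 of the 17 and 0 of the 9 in the second, the interval held 0. The highest FPKM was found in intolerant grazed plants for 49 members, in tolerant grazed plants for 24 and in tolerant ungrazed plants for 18 (53.8%, 26.4% and 19.8%, against 54.7%, 24.9% and 20.4% of legume-matched transcripts).

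**Figure D1:**
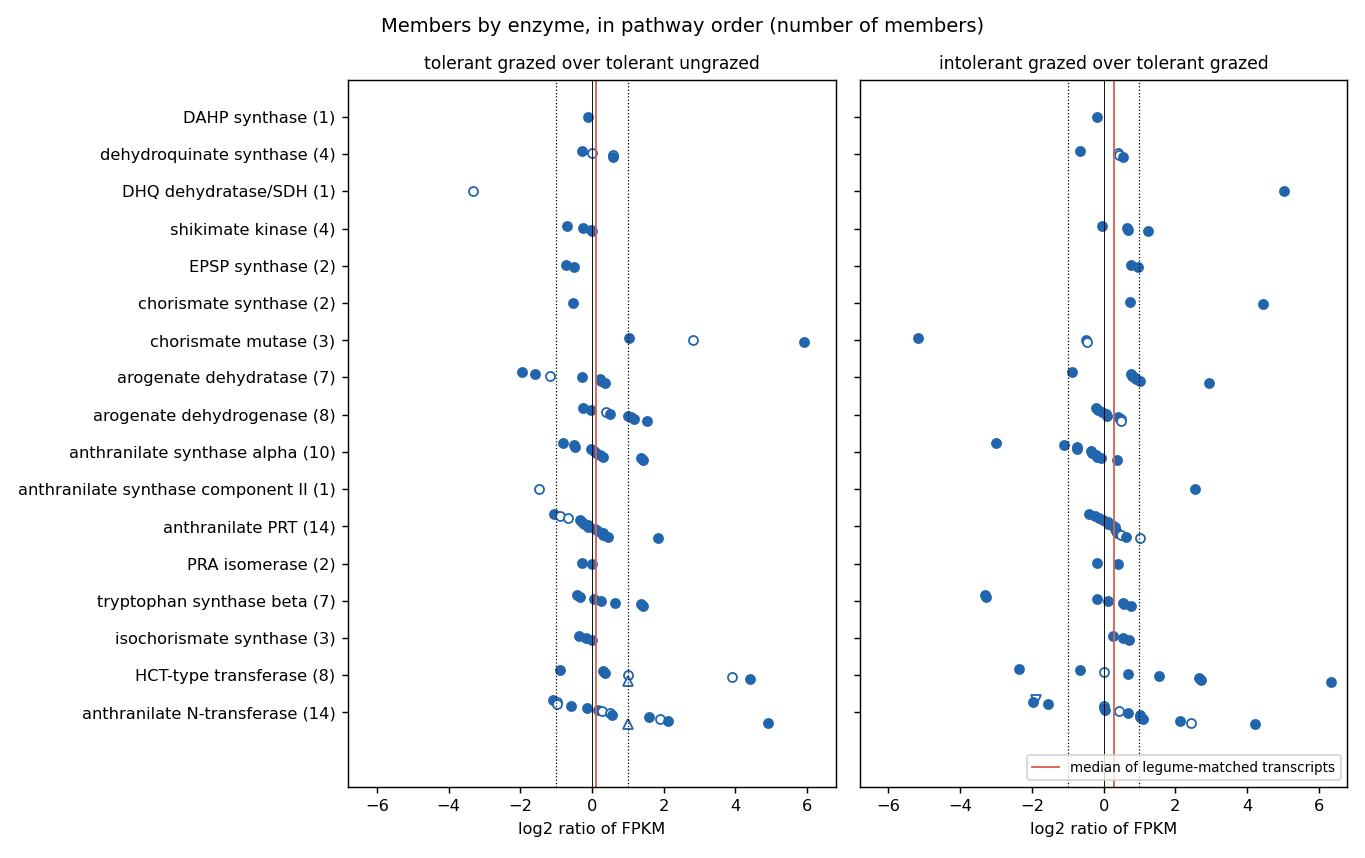
Log2 ratio of FPKM of each member, by enzyme in pathway order, in tolerant grazed over tolerant ungrazed plants (left) and intolerant grazed over tolerant grazed plants (right). Open circles had under 20 fragments in both libraries, triangles are bounds for a library with 0 fragments, dotted lines mark the threshold of 1, and the red line is the median of legume-matched transcripts. Chorismate mutase is the enzyme with all 3 members right of the threshold on the left.

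The steps that build chorismate were lowest in tolerant grazed plants for several enzymes, by less than the threshold. Of the 14 members assigned to these 6 steps, 0 were higher and 1 was lower in tolerant grazed over tolerant ungrazed plants (legume-matched, 15.0% and 8.47%). The median log2 ratio was -0.25 (legume-matched, 0.12). In intolerant grazed over tolerant grazed plants 3 were higher and 0 lower (21.4% and 0%, legume-matched 22.3% and 13.1%). The median there was 0.66 (legume-matched, 0.28). The lowest FPKM of the 3 libraries stood in tolerant grazed plants for 8 of the 14 (57.1%), against 30.4% of legume-matched transcripts. Their summed FPKM was 336 in intolerant grazed, 287 in tolerant grazed and 334 in tolerant ungrazed plants.

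The most abundant member was CL11827.Contig2, a DAHP synthase, the enzyme that joins the 2 substrates at the entry of the pathway. It had 160 FPKM in intolerant grazed, 183 in tolerant grazed and 198 in tolerant ungrazed plants. The 3 libraries thus lay close together, with a log2 ratio of -0.11 [-0.16, -0.07] in tolerant grazed over tolerant ungrazed plants and -0.20 [-0.24, -0.15] in intolerant grazed over tolerant grazed plants. Its best match was the M. truncatula locus MTR_5g064500. With the 5 other legume-matched transcripts of the same orthology number, whose protein annotation lacked the words, the step summed to 249.8 FPKM in intolerant grazed, 241.2 in tolerant grazed and 269.8 in tolerant ungrazed plants. These sums had log2 ratios of -0.16 and 0.05, so the sign of the second turned while both stayed near 0.

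EPSP synthase, which adds the enolpyruvyl group and is the target of glyphosate, was represented by the 2 contigs of cluster CL8622. CL8622.Contig1 had 23.9 FPKM in intolerant grazed, 12.4 in tolerant grazed and 17.6 in tolerant ungrazed plants. The tolerant grazed library was the lowest, with log2 ratios of -0.50 [-0.66, -0.35] for tolerant grazed over tolerant ungrazed plants and 0.95 [0.80, 1.09] for intolerant grazed over tolerant grazed plants. CL8622.Contig2 followed it, with ratios of -0.73 [-0.90, -0.56] and 0.76 [0.59, 0.93].

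Chorismate synthase, the last step, was carried by Unigene27150. It had 50.2 FPKM in intolerant grazed, 29.9 in tolerant grazed and 43.1 in tolerant ungrazed plants, the same order as EPSP synthase. The log2 ratios were -0.53 [-0.63, -0.43] in tolerant grazed over tolerant ungrazed plants and 0.75 [0.65, 0.84] in intolerant grazed over tolerant grazed plants. A further transcript of 364 bases, CL7728.Contig1, matched part of a chorismate synthase with a weak score of 67.0 and no orthology number. It had 43 fragments in intolerant grazed, 2 in tolerant grazed and 3 in tolerant ungrazed plants, a log2 ratio of 4.45 [2.51, 7.54] in intolerant grazed over tolerant grazed plants.

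Dehydroquinate synthase, the enzyme that closes the ring, was led by CL479.Contig1, of 1644 bases. This transcript carried the orthology number of the enzyme but had no match in the Swiss-Prot protein database. It had 29.2 FPKM in intolerant grazed, 20.2 in tolerant grazed and 24.4 in tolerant ungrazed plants. Its log2 ratios were -0.27 [-0.42, -0.13] in tolerant grazed over tolerant ungrazed plants and 0.53 [0.40, 0.67] in intolerant grazed over tolerant grazed plants. The other 3 members named for this enzyme carried no orthology number and had 6 to 21 fragments per library, and their intervals held 0 in both comparisons. These short transcripts turned the median of the enzyme to 0.30 while its summed FPKM had a log2 ratio of -0.15 in tolerant grazed over tolerant ungrazed plants.

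Shikimate kinase, which phosphorylates shikimate, was led by Unigene6162 with 21.6 FPKM in intolerant grazed, 13.8 in tolerant grazed and 14 in tolerant ungrazed plants. The intolerant grazed library stood above the other 2, with a log2 ratio of 0.65 [0.48, 0.81] over tolerant grazed plants, and tolerant grazed over tolerant ungrazed plants gave -0.02 [-0.20, 0.17]. Unigene53179, a shorter match to the same locus MTR_5g029550, was higher in intolerant grazed over tolerant grazed plants at 1.23 [0.65, 1.83], from 83 and 36 fragments. Unigene6162 and Unigene53179 were annotated as like shikimate kinase, without a match in the Swiss-Prot protein database. CL8281.Contig8 matched a plastidic shikimate kinase there and was called in neither comparison. It had 2.87 FPKM in intolerant grazed, 2.97 in tolerant grazed and 3.525 in tolerant ungrazed plants. The 13 legume-matched transcripts of the orthology number summed to 81.0, 55.9 and 56.7 FPKM in the same order, log2 ratios of -0.02 and 0.54.

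The bifunctional dehydroquinate dehydratase/shikimate dehydrogenase, which makes shikimate, had 1 member, CL11267.Contig1, of 453 bases. It had 32 fragments in intolerant grazed, 1 in tolerant grazed and 10 in tolerant ungrazed plants. It was the member called lower in tolerant grazed over tolerant ungrazed plants at -3.31 [-8.75, -0.50], and its ratio in intolerant grazed over tolerant grazed plants was 5.02 [2.44, 10.37]. Its counts are few, and what it shows is limited to this transcript. Another 3 legume-matched transcripts bore the same orthology number, but 2 of them were annotated as a Yip1 domain family member and 1 as unknown, so their place in this step is uncertain. The unknown one, Unigene6227, had 14.8 FPKM in intolerant grazed, 11.35 in tolerant grazed and 10.96 in tolerant ungrazed plants, with log2 ratios of 0.05 [-0.13, 0.23] and 0.38 [0.22, 0.55].

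Chorismate mutase, which rearranges chorismate to prephenate and commits it to phenylalanine and tyrosine, was higher in tolerant grazed over tolerant ungrazed plants in all 3 of its members. The study itself had picked CL10594.Contig2 and Unigene16098 from these libraries as higher in grazed tolerant plants, so their direction is not independent evidence. It also measured both by RT-PCR in individual grazed plants of the same 2 populations that gave the bulks, with RNA not pooled over plants. There it reported a chorismate mutase transcript significantly higher in tolerant than in intolerant plants, and its running text does not name which. Ungrazed plants were not part of that RT-PCR, so it bears on the population difference only. CL10594.Contig2 had 0.957 FPKM in intolerant grazed, 34.3 in tolerant grazed and 0.571 in tolerant ungrazed plants, from 18, 656 and 11 fragments. The tolerant grazed library alone of the 3 held it at an appreciable level, with log2 ratios of 5.91 [5.06, 6.92] in tolerant grazed over tolerant ungrazed plants and -5.16 [-5.93, -4.49] in intolerant grazed over tolerant grazed plants. Among legume-matched transcripts with at least 50 fragments in 1 of the 2 libraries, 0.300% lay at least as far in the same direction in the first comparison and 0.579% in the second.

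Unigene16098 was the more even of the chorismate mutases, with 29.0 FPKM in intolerant grazed, 41.1 in tolerant grazed and 20.02 in tolerant ungrazed plants. Tolerant grazed plants were again the highest, but the log2 ratios were smaller, at 1.04 [0.87, 1.205] in tolerant grazed over tolerant ungrazed plants and -0.50 [-0.65, -0.35] in intolerant grazed over tolerant grazed plants. The call at the threshold of 1 is close, as the interval runs below it. Both transcripts were annotated as plastidic enzymes by their match to CM1 of Arabidopsis thaliana. Their M. truncatula loci differed, MTR_5g043210 for CL10594 and MTR_1g013820 for Unigene16098, and so did the strength of the match, with a protein score of 67.4 for CL10594.Contig2 over 844 bases and 493.8 for Unigene16098 over 965 bases. The enzyme name of the CL10594 contigs therefore rests on a short or distant match.

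CL10594.Contig1, of 322 bases in the same cluster, had 10 fragments in intolerant grazed, 14 in tolerant grazed and 2 in tolerant ungrazed plants. Its log2 ratio was 2.82 [0.70, 5.999] in tolerant grazed over tolerant ungrazed plants, and at -0.46 [-1.79, 0.81] in intolerant grazed over tolerant grazed plants it did not share the difference of Contig2. Contigs of a cluster share sequence, and counting of uniquely aligned fragments can divide reads between them, so the values of single contigs are uncertain. The cluster summed to 2.35 FPKM in intolerant grazed, 36.2 in tolerant grazed and 0.843 in tolerant ungrazed plants.

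Chorismate mutase as a whole summed to 31.4 FPKM in intolerant grazed, 77.3 in tolerant grazed and 20.9 in tolerant ungrazed plants. The log2 ratios of these sums were 1.89 in tolerant grazed over tolerant ungrazed plants and -1.30 in intolerant grazed over tolerant grazed plants, and on summed fragments 1.80 [1.65, 1.95] and -1.24 [-1.38, -1.11]. CL10594.Contig2 made up 3.05% of the sum in intolerant grazed, 44.4% in tolerant grazed and 2.74% in tolerant ungrazed plants. Without it the ratios were 1.08 and -0.50. Another legume-matched transcript, Unigene12691, carried the orthology number of chorismate mutase but a protein match called unknown, so the words of the choice missed it. It ran the other way, with 48.0 FPKM in intolerant grazed, 31.8 in tolerant grazed and 41.7 in tolerant ungrazed plants. Its log2 ratios were -0.39 [-0.51, -0.26] in tolerant grazed over tolerant ungrazed plants and 0.59 [0.47, 0.72] in intolerant grazed over tolerant grazed plants. With it the step summed to 79.4, 109 and 62.6 FPKM in the same order, log2 ratios of 0.80 and -0.46, short of the threshold.

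**Figure D2:**
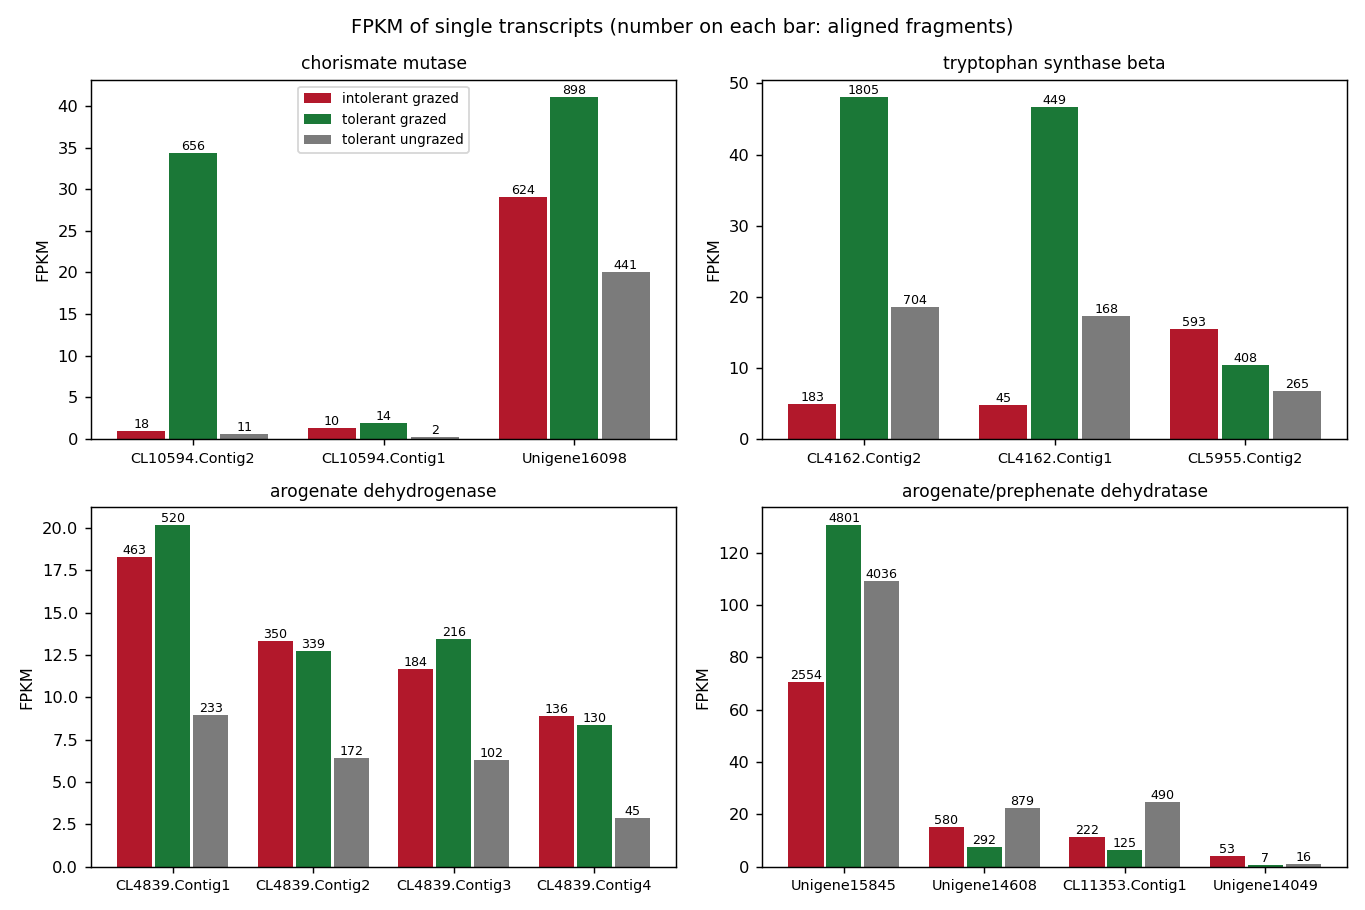
FPKM of single transcripts in intolerant grazed, tolerant grazed and tolerant ungrazed plants (bars from left to right), with the number of aligned fragments on each bar. CL10594.Contig2 rests on 656 fragments in tolerant grazed plants against 18 and 11 in the other libraries, and the CL4162 contigs are lowest in intolerant grazed plants.

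Below prephenate the branch parts into phenylalanine, through arogenate or prephenate dehydratase, and tyrosine, through arogenate dehydrogenase. Of the 8 arogenate dehydrogenase members, 3 were higher and 0 lower in tolerant grazed over tolerant ungrazed plants (legume-matched, 15.0% and 8.47%), with a median log2 ratio of 0.75. All 3 belonged to cluster CL4839, of which CL4839.Contig1 and CL4839.Contig4 matched MTR_3g071980, and members outside it were not called. In intolerant grazed over tolerant grazed plants 0 were called (legume-matched, 22.3% and 13.1%), with a median of 0.08. The summed FPKM of the enzyme had log2 ratios of 0.80 in tolerant grazed over tolerant ungrazed plants and 0.02 in intolerant grazed over tolerant grazed plants. Both were short of the threshold. The dehydratases were mixed.

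CL4839.Contig1 had 18.3 FPKM in intolerant grazed, 20.2 in tolerant grazed and 8.98 in tolerant ungrazed plants. The 2 grazed libraries lay side by side above the tolerant ungrazed one, and there was no intolerant ungrazed library. The log2 ratios were 1.17 [0.94, 1.40] in tolerant grazed over tolerant ungrazed plants and -0.14 [-0.33, 0.04] in intolerant grazed over tolerant grazed plants. CL4839.Contig3 gave 1.09 [0.75, 1.45] and CL4839.Contig4 gave 1.54 [1.04, 2.06] in the first comparison, and CL4839.Contig2, at 0.99 [0.72, 1.26], fell just short of the threshold. Summed, the cluster had 52.2 FPKM in intolerant grazed, 54.7 in tolerant grazed and 24.6 in tolerant ungrazed plants. On summed fragments the cluster had 1.14 [0.99, 1.29] in tolerant grazed over tolerant ungrazed plants and -0.07 [-0.18, 0.05] in intolerant grazed over tolerant grazed plants, where CL10594.Contig2 had -5.16.

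Among the 7 dehydratase members, 0 were higher and 3 were lower in tolerant grazed over tolerant ungrazed plants (median -0.29, legume-matched 15.0% higher and 8.47% lower). In intolerant grazed over tolerant grazed plants 2 were higher and 0 lower (median 0.85, legume-matched 22.3% and 13.1%). Unigene15845 held most of the transcript, with 70.7 FPKM in intolerant grazed, 131 in tolerant grazed and 109 in tolerant ungrazed plants. It was the dehydratase that was lower in intolerant grazed over tolerant grazed plants, at -0.89 [-0.96, -0.82] and short of the threshold, with 0.26 [0.20, 0.32] in tolerant grazed over tolerant ungrazed plants.

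Unigene14608, matched to MTR_2g088130, ran the other way, with 15.1 FPKM in intolerant grazed, 7.47 in tolerant grazed and 22.3 in tolerant ungrazed plants. The tolerant grazed library was the lowest, at -1.58 [-1.77, -1.39] over tolerant ungrazed plants and 1.01 [0.81, 1.22] for intolerant grazed over tolerant grazed plants. CL11353.Contig1 had 11.4, 6.33 and 24.6 FPKM in intolerant grazed, tolerant grazed and tolerant ungrazed plants, log2 ratios of -1.96 [-2.25, -1.67] and 0.85 [0.53, 1.18]. Its partner CL11353.Contig2 had -0.29 [-0.55, -0.03] in tolerant grazed over tolerant ungrazed plants, and the cluster summed to 24.9, 13.5 and 33.4 FPKM in the same library order. Unigene14049 was low, with 53, 7 and 16 fragments, and had ratios of -1.18 [-2.70, 0.18] and 2.94 [1.80, 4.33]. The summed FPKM of the dehydratases differed little, at 128.5 in intolerant grazed, 160 in tolerant grazed and 172.5 in tolerant ungrazed plants. In intolerant grazed over tolerant grazed plants the sum had a log2 ratio of -0.32 and the median of the members 0.85, and Unigene15845 held 55.0%, 81.6% and 63.3% of the sum in intolerant grazed, tolerant grazed and tolerant ungrazed plants.

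The tryptophan branch held 34 members, of which 5 were higher and 2 lower in tolerant grazed over tolerant ungrazed plants (median 0.02) and 2 were higher and 4 lower in intolerant grazed over tolerant grazed plants (median 0.05). These are 14.7% and 5.88% of the 34 in the first comparison, beside 15.0% and 8.47% of legume-matched transcripts, and 5.88% and 11.8% in the second, beside 22.3% and 13.1%. The 2 contigs of CL4162 are a tryptophan synthase beta chain, the subunit that joins indole and serine. CL4162.Contig2, matched to MTR_5g005670 with a score of 904.8, had 4.96 FPKM in intolerant grazed, 48.1 in tolerant grazed and 18.6 in tolerant ungrazed plants. It was thus intermediate in tolerant ungrazed plants, with log2 ratios of 1.37 [1.24, 1.497] in tolerant grazed over tolerant ungrazed plants and -3.28 [-3.51, -3.06] in intolerant grazed over tolerant grazed plants. Among legume-matched transcripts with at least 50 fragments in 1 of the 2 libraries, 5.10% and 1.42% lay at least as far in the same direction in these comparisons. CL4162.Contig1 had 4.75, 46.6 and 17.3 FPKM in intolerant grazed, tolerant grazed and tolerant ungrazed plants, ratios of 1.43 [1.17, 1.69] and -3.30 [-3.77, -2.85], nearly those of its partner.

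The other 5 tryptophan synthase beta members were called in neither comparison. CL5955.Contig2, the most abundant of them, had 15.4 FPKM in intolerant grazed, 10.4 in tolerant grazed and 6.73 in tolerant ungrazed plants, so that the intolerant grazed library was its highest. Its log2 ratios were 0.63 [0.41, 0.86] in tolerant grazed over tolerant ungrazed plants and 0.56 [0.38, 0.75] in intolerant grazed over tolerant grazed plants. The 7 members summed to 51.2 FPKM in intolerant grazed, 125.5 in tolerant grazed and 64.9 in tolerant ungrazed plants, log2 ratios of 0.95 and -1.29. CL4162 held 19.0%, 75.5% and 55.4% of these sums, and without it the ratios were 0.09 and 0.43, so the direction of the second rests on this cluster.

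Anthranilate synthase, which takes chorismate into the tryptophan branch, has an alpha chain that binds chorismate. Unigene634 was its most abundant member, with 8.004 FPKM in intolerant grazed, 6.21 in tolerant grazed and 5.97 in tolerant ungrazed plants, and was called in neither comparison. Unigene23683, at another locus, MTR_3g070290, had 4.37 FPKM in intolerant grazed, 5.003 in tolerant grazed and 1.85 in tolerant ungrazed plants. Both grazed libraries lay above the tolerant ungrazed one, with log2 ratios of 1.43 [0.97, 1.92] in tolerant grazed over tolerant ungrazed plants and -0.20 [-0.56, 0.16] in intolerant grazed over tolerant grazed plants. Unigene4323, a shorter match to the same locus, had 1.36 [0.55, 2.24] and -0.75 [-1.49, -0.03]. Another 7 members bore the name of the alpha chain without its orthology number, 5 of them in cluster CL8219, and 2 of these carried orthology numbers of other proteins, so their enzyme name is uncertain. Of the 7, 0 were called in tolerant grazed over tolerant ungrazed plants and 2 were lower in intolerant grazed over tolerant grazed plants.

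The 1 member named for component II of anthranilate synthase, Unigene20277, is the chain that supplies ammonia, and it carried an orthology number of aminodeoxychorismate synthase, an enzyme of folate synthesis. It had 29 fragments in intolerant grazed, 5 in tolerant grazed and 14 in tolerant ungrazed plants. The log2 ratios were -1.47 [-3.30, 0.08] in tolerant grazed over tolerant ungrazed plants and 2.56 [1.17, 4.29] in intolerant grazed over tolerant grazed plants. With 3 other legume-matched transcripts of the orthology numbers of component II and of aminodeoxychorismate synthase, the sum was 21.2 FPKM in intolerant grazed, 17.2 in tolerant grazed and 14.9 in tolerant ungrazed plants. Its log2 ratios were 0.21 and 0.30 in place of -1.47 and 2.56, so the direction of the first turned. Of these, Unigene18415 carried the number of component II itself and had 288 fragments in intolerant grazed, 288 in tolerant grazed and 188 in tolerant ungrazed plants, with 0.63 [0.36, 0.90] and 0.02 [-0.22, 0.26].

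Anthranilate phosphoribosyltransferase, which attaches the ribose phosphate, had 14 members, and 11 of them carried its orthology number. Those 11 summed to 50.2 FPKM in intolerant grazed, 45.0 in tolerant grazed and 49.99 in tolerant ungrazed plants, nearly level as a sum. Of these, 7 were contigs of cluster CL2890, annotated as like this enzyme without a Swiss-Prot match. The CL8030 contigs matched the plastidic PAT1 of Arabidopsis thaliana. On summed fragments CL8030 had -0.79 [-1.05, -0.54] in tolerant grazed over tolerant ungrazed plants and -0.03 [-0.32, 0.25] in intolerant grazed over tolerant grazed plants. CL8030.Contig3 alone of the 11 was called in tolerant grazed over tolerant ungrazed plants, where it was lower at -1.05 [-1.37, -0.73], with 3.57 FPKM in intolerant grazed, 3.30 in tolerant grazed and 6.82 in tolerant ungrazed plants. CL6892.Contig1 and CL6892.Contig2 were annotated as like this enzyme, but the second matched a C2 and GRAM domain protein in another database and neither had the orthology number. CL6892.Contig2 had 17.04, 14.4 and 10.53 FPKM in intolerant grazed, tolerant grazed and tolerant ungrazed plants, with 0.45 [0.30, 0.59] in tolerant grazed over tolerant ungrazed plants, and CL6892.Contig1 was higher there at 1.83 [1.03, 2.70]. Phosphoribosylanthranilate isomerase, the next step, had 2 members, and both were level within their intervals. Unigene3586 had 4.11 FPKM in intolerant grazed, 4.69 in tolerant grazed and 4.72 in tolerant ungrazed plants.

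Isochorismate synthase was represented by 3 short members of 1 locus, MTR_4g076520, and 0 of them were called. Unigene18185 had 46 fragments in intolerant grazed, 39 in tolerant grazed and 51 in tolerant ungrazed plants. The 3 summed to 17.2 FPKM in intolerant grazed, 11.7 in tolerant grazed and 12.9 in tolerant ungrazed plants, and on summed fragments the log2 ratios were -0.20 [-0.59, 0.20] in tolerant grazed over tolerant ungrazed plants and 0.50 [0.12, 0.88] in intolerant grazed over tolerant grazed plants.

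**Figure D3:**
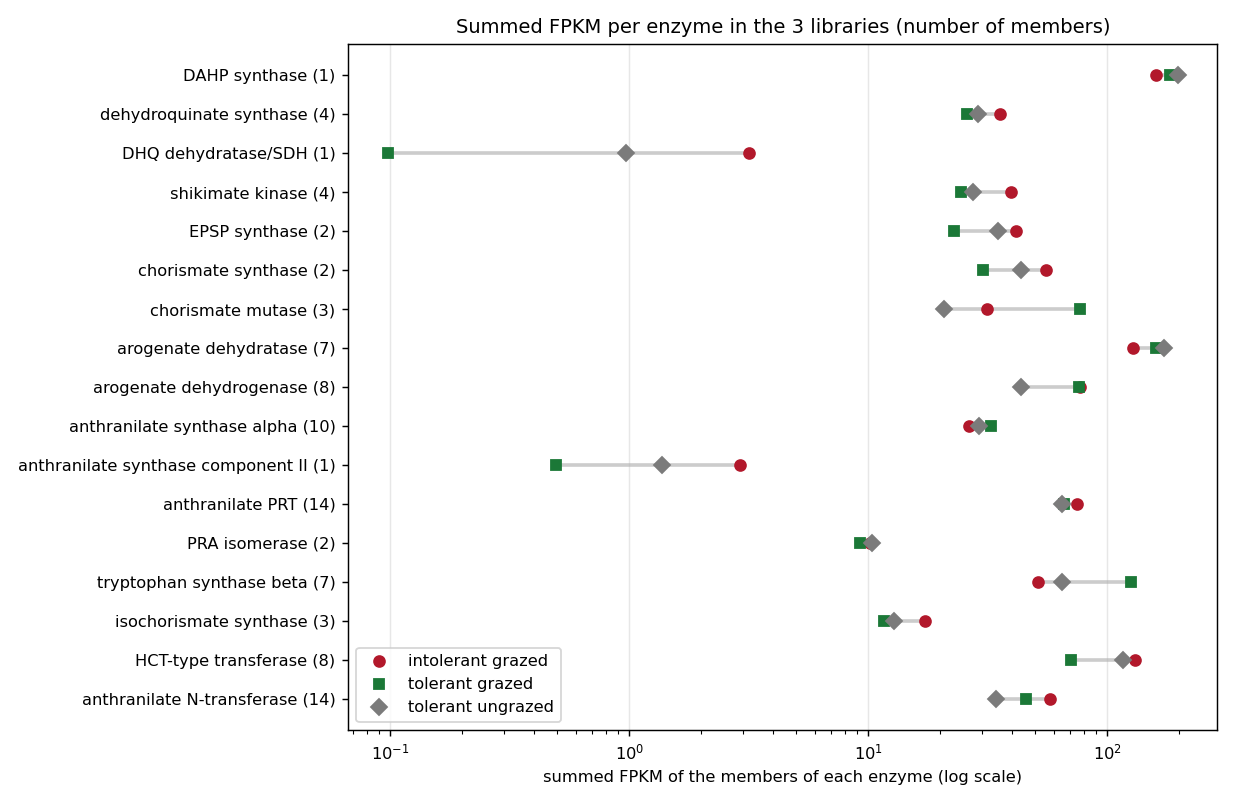
Summed FPKM of the members of each enzyme, on a log scale, in intolerant grazed (circles), tolerant grazed (squares) and tolerant ungrazed plants (diamonds), with no replicates. Chorismate mutase (77.3 FPKM) and tryptophan synthase beta (125.5 FPKM) stand highest in tolerant grazed plants, and EPSP synthase (23.0 FPKM) and chorismate synthase (30.2 FPKM) lowest there.

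Apart from Unigene33092, named as an N-methyltransferase, the 22 acceptor transferases belong to a large acyltransferase family. Members of that family are hard to tell apart by annotation, and many of the 22 were short. Of those over the floor, 9 of 21 were higher and 1 was lower in tolerant grazed over tolerant ungrazed plants, and 10 of 22 were higher and 4 lower in intolerant grazed over tolerant grazed plants. These 42.9% and 45.5% higher stand against 15.0% and 22.3% of legume-matched transcripts in the same comparisons, but 1 of the 9 and 6 of the 10 had at least 50 fragments in 1 of the 2 libraries, and 15 of the 22 transcripts were under 500 bases long.

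The most abundant transcript annotated as hydroxycinnamoyl-CoA shikimate transferase was CL4280.Contig1, matched to the enzyme of Trifolium pratense. Some of the less abundant ones shared its Swiss-Prot match and orthology number, so annotation does not settle which is the enzyme of lignin synthesis. CL4280.Contig1 had 95.1 FPKM in intolerant grazed, 59.9 in tolerant grazed and 111.8 in tolerant ungrazed plants. It was lowest in tolerant grazed plants, with log2 ratios of -0.90 [-0.97, -0.83] over tolerant ungrazed plants and 0.67 [0.59, 0.74] for intolerant grazed over tolerant grazed plants, both short of the threshold. It held 72.6%, 84.5% and 95.5% of the summed FPKM of the 8 transcripts so annotated, so the sum had a log2 ratio of -0.72 in tolerant grazed over tolerant ungrazed plants while the median of the 7 over the floor was 1.01.

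The other transcripts of this annotation were less abundant, and they differed in direction. Unigene38995 had 159 fragments in intolerant grazed, 2 in tolerant grazed and 1 in tolerant ungrazed plants, a log2 ratio of 6.34 [4.46, 9.39] in intolerant grazed over tolerant grazed plants. Unigene38996 had 94, 15 and 1 fragments in the same order, with 2.67 [1.88, 3.56] in that comparison and 3.92 [1.22, 9.31] in tolerant grazed over tolerant ungrazed plants. Unigene38909 had 39, 6 and 0 fragments, at least 2.02-fold higher in tolerant grazed over tolerant ungrazed plants when 0 is set to the floor of 3 fragments. These 3 were thus highest in intolerant grazed plants and at or near 0 in tolerant ungrazed plants. Unigene38995 and Unigene38996 matched spermidine hydroxycinnamoyl transferase in another database, so their acceptor is uncertain. Unigene14330 had 4 fragments in intolerant grazed, 21 in tolerant grazed and 17 in tolerant ungrazed plants and was lower in intolerant grazed over tolerant grazed plants, at -2.37 [-4.37, -0.80]. Unigene22807, with 13, 21 and 1 fragments, and CL7433.Contig1, with 10, 10 and 5, were not highest in intolerant grazed plants alone. Unigene14718, with the orthology number of a feruloyl transferase of suberin synthesis, had 5.36 FPKM in intolerant grazed, 1.83 in tolerant grazed and 1.41 in tolerant ungrazed plants and was higher in intolerant grazed over tolerant grazed plants at 1.55 [1.05, 2.08].

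The 14 transferases named for anthranilate were led in fragments by CL2782.Contig1, with 6.73 FPKM in intolerant grazed, 3.35 in tolerant grazed and 7.11 in tolerant ungrazed plants. It was lowest in tolerant grazed plants, at -1.09 [-1.44, -0.75] over tolerant ungrazed plants and 1.01 [0.66, 1.36] for intolerant grazed over tolerant grazed plants. CL840.Contig2 instead had 9.80 FPKM in intolerant grazed, 4.62 in tolerant grazed and 1.06 in tolerant ungrazed plants, and was higher in both comparisons, at 2.13 [1.37, 2.95] and 1.09 [0.69, 1.49]. Unigene9363 was higher in intolerant grazed over tolerant grazed plants at 1.02 [0.43, 1.64], from 72 and 36 fragments, and Unigene22325 was lower there at -1.56 [-2.25, -0.92], from 27 and 81 fragments. Unigene33092, named as an N-methyltransferase, had 0, 11 and 3 fragments, at least 3.61-fold lower in intolerant grazed over tolerant grazed plants against the floor.

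**Figure D4:**
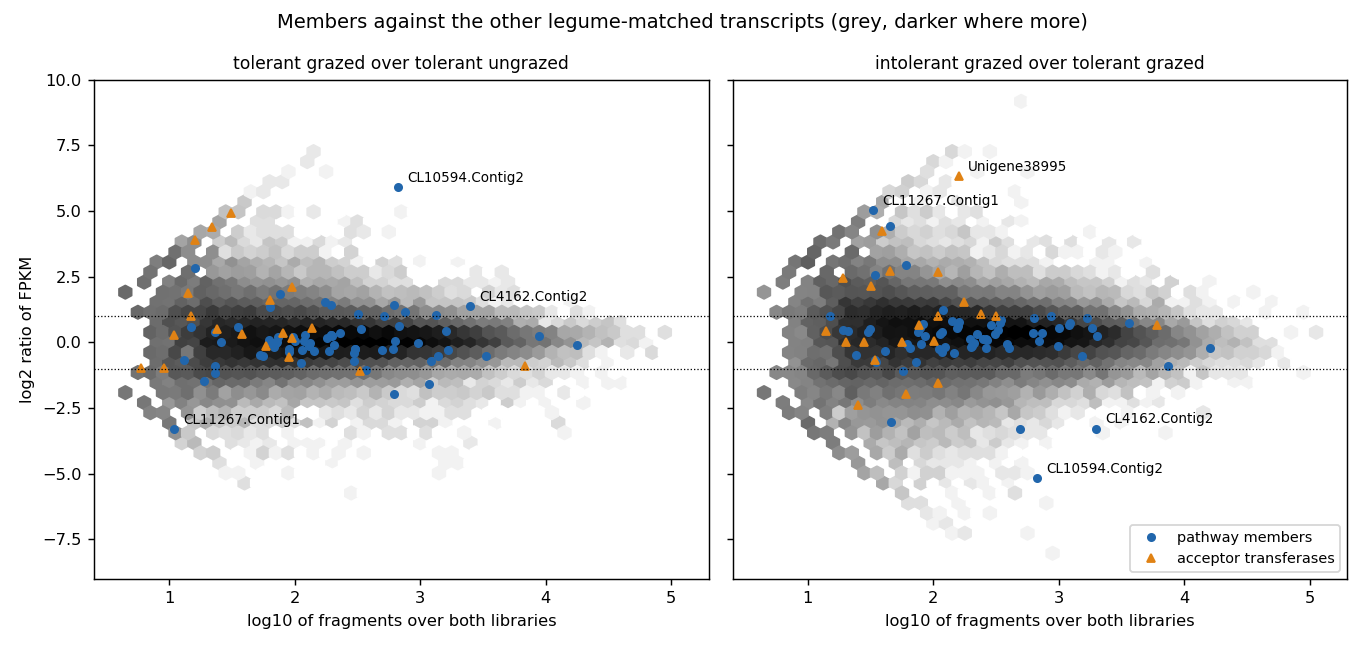
Log2 ratio of FPKM against the log10 of fragments over both libraries, for pathway members (circles), acceptor transferases (triangles) and the other legume-matched transcripts (grey, darker where there are more), with dotted lines at the threshold of 1 and transcripts with 0 fragments in a library left out. CL10594.Contig2 lies at 5.91 in tolerant grazed over tolerant ungrazed plants and -5.16 in intolerant grazed over tolerant grazed plants, at the edge of the background at its depth.

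Other legume-matched transcripts were assigned to the pathway by orthology number alone where the protein annotation lacked the words. These were 34 transcripts, of which 25 add to the steps above and 9 belong to steps with no member, namely indole-3-glycerol phosphate synthase, the tryptophan synthase alpha chain and prephenate aminotransferase. Of the 34, 0 were higher and 1 was lower in tolerant grazed over tolerant ungrazed plants (median 0.01, legume-matched 15.0% higher and 8.47% lower). In intolerant grazed over tolerant grazed plants 3 were higher and 0 lower (median 0.38, legume-matched 22.3% and 13.1%). The lower one, CL6846.Contig3, is among the 9 and had 3 fragments in tolerant grazed and 11 in tolerant ungrazed plants. The 34 summed to 541 FPKM in intolerant grazed, 384 in tolerant grazed and 411 in tolerant ungrazed plants. Among them were transcripts annotated as a Yip1 domain family member or a kynurenine-oxoglutarate transaminase, so the place of these in the pathway is uncertain.

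Users of the products differed among themselves. Counts here stand beside 15.0% higher and 8.47% lower of legume-matched transcripts in the first comparison. In the second they stand beside 22.3% and 13.1%. Phenylalanine ammonia-lyase, which opens the phenylpropanoid pathway, had 15 transcripts, most of them contigs of cluster CL1025 that were counted separately. Of the 15, 2 were higher and 2 lower in tolerant grazed over tolerant ungrazed plants. In intolerant grazed over tolerant grazed plants 5 were higher and 6 lower. They summed to 212 FPKM in intolerant grazed, 287.5 in tolerant grazed and 320 in tolerant ungrazed plants. On the tyrosine side, tyrosine aminotransferase, which starts tyrosine breakdown and tocopherol synthesis, had 57.8 FPKM in intolerant grazed, 21.0 in tolerant grazed and 9.98 in tolerant ungrazed plants over 2 transcripts, and both passed the threshold in tolerant grazed over tolerant ungrazed plants. One of them, Unigene23112, rests on 6 fragments in tolerant grazed and 3 in tolerant ungrazed plants, and its interval, 1.01 [-1.22, 3.64], holds 0. The next enzyme, 4-hydroxyphenylpyruvate dioxygenase, summed to 105, 42.1 and 52.5 FPKM in the same order, with 1 of 2 higher in intolerant grazed over tolerant grazed plants. Of 6 homogentisate enzymes 1 was higher and 0 lower in the first comparison and 0 were called in the second, and of 5 aromatic amino acid decarboxylases 0 were called in the first and 2 were higher in the second.

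Among suppliers of the substrates, enolase, which makes phosphoenolpyruvate, was lowest in tolerant grazed plants. Its 7 transcripts had 0 higher and 4 lower in tolerant grazed over tolerant ungrazed plants (legume-matched, 15.0% and 8.47%). In intolerant grazed over tolerant grazed plants 4 were higher and 0 lower (legume-matched, 22.3% and 13.1%). They summed to 1070 FPKM in intolerant grazed, 361 in tolerant grazed and 548 in tolerant ungrazed plants. Of the 4 called, CL10620.Contig1, CL10620.Contig2 and Unigene4699, of 251, 252 and 620 bases, matched the same locus, MTR_6g060570. The most abundant enolase, CL2766.Contig1, was called in neither comparison. It had 373 FPKM in intolerant grazed, 296 in tolerant grazed and 342 in tolerant ungrazed plants, at -0.21 [-0.24, -0.17] and 0.33 [0.30, 0.37]. Transketolase, which makes erythrose 4-phosphate, had 0 higher and 1 lower of 4 in the first comparison and 0 called in the second. The phosphoenolpyruvate/phosphate translocator, 1 transcript, had 5.18 FPKM in intolerant grazed, 4.504 in tolerant grazed and 2.27 in tolerant ungrazed plants, at 0.99 [0.54, 1.45] in the first comparison.

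At the boundary of the choice, 9 transcripts carried its words without a legume in both matches. Of these, 5 matched the dinoflagellate Oxyrrhis marina and had 0 fragments in intolerant grazed, 3 in tolerant grazed and 274 in tolerant ungrazed plants, and they are not counted among the members. The other 4 had 40, 67 and 132 fragments in the same order.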

How the data were processed

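RNA from 3 bulks was sequenced as 1 library each. By the paper's methods and the deposited notes, the authors assembled clean reads de novo with Trinity, clustered transcripts with TGICL and annotated them by similarity searches. Program versions are not given in the sources used here. The deposited count of fragments is that of uniquely aligned reads made with SOAP, not normalized, and the deposited FPKM is that count per kilobase and per mega-fragment of the library's aligned total. Depth was 22.3 to 22.8 mega-fragments per library. Unique alignment leaves out reads shared by near-identical contigs, and the transcripts carry no genome position.

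Log2 ratios of FPKM were taken with 0.01 in place of 0. The threshold was the absolute log2 ratio of 1 of the paper's methods. Their second condition, an FDR of at most 0.001 from a Poisson test, was not part of the calls. Intervals are exact Clopper-Pearson 95% intervals on fragments. For sums, the ratio of summed FPKM weights short transcripts more than the ratio of summed fragments, and intervals belong to the second. Transcripts named are every chorismate mutase, the most abundant member of each enzyme and each member called with at least 50 fragments in 1 of the 2 libraries. CL7728.Contig1, CL8281.Contig8, CL8622.Contig2, CL4839.Contig2, CL11353.Contig2, CL5955.Contig2, Unigene4323, Unigene38909, Unigene33092, Unigene12691, Unigene6227, Unigene18415, Unigene14330, Unigene22807, CL7433.Contig1, Unigene23112, CL6846.Contig3, CL10620.Contig1, CL10620.Contig2, Unigene4699 and CL2766.Contig1 were added to these with their values in view. The members, the lists and the enzyme order were chosen with earlier results of these data known. Other settings tried are the scaling, the handling of low values, the threshold, a Poisson test and the choice of members. The computations were tested on simulated data. Scripts ran in Python 3.11.15 (scipy 1.17.1, numpy 2.4.6, matplotlib 3.10.9, pandas 2.3.3).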

Additional observations from a re-analysis of the deposited data

How the results depend on the processing

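The counts of members called kept within 1.5 times their value in 39 of 56 settings. The members higher in tolerant grazed over tolerant ungrazed plants, 20, numbered 8 at a log2 threshold of 2, 13 with a Poisson adjusted p of at most 0.001, 11 without the acceptor transferases, 12 among transcripts of at least 500 bases and 10 among pathway members with the orthology number of their enzyme. Those lower, 7, numbered 2 with 1 added to every FPKM, 4 at a mean FPKM of at least 1, 1 at a threshold of 2 and 4 with the Poisson test. In intolerant grazed over tolerant grazed plants, those higher, 17, numbered 10 at a threshold of 2, 11 after rescaling by the median ratio, 7 without the acceptor transferases, 7 at 500 bases and 5 with the orthology number. Those lower, 9, numbered 5 without the acceptor transferases, 5 at 500 bases and 3 with the orthology number. The log2 ratio of tryptophan synthase beta in intolerant grazed over tolerant grazed plants, -1.29, was 0.11 as the median of its members and 0.43 without CL4162. Among 170 values of enzyme sums, the sign changed in 14, of which 5 came from the median in place of the sum and 4 from rescaling by the median ratio. The settings by orthology number and without CL10594.Contig2 or CL4162 were chosen after seeing the data. No paired analysis was possible because there was 1 library per condition. Intervals cover counting error, so they say nothing of the spread between plants.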
